A study of Mus musculus with 24 samples.

Results

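The TNF superfamily of ligands and its receptors was described across unpolarized (M0), M1 and M2 mouse peritoneal macrophages with and without the immunoproteasome inhibitor ONX-0914. Members were all protein-coding genes whose symbol starts with Tnfsf or Tnfrsf, together with Tnf, Lta, Ltb, Ltbr, Fas, Fasl, Cd27 and Cd70. Cd40 was not included. This gave 40 genes, 17 ligands and 23 receptors, of 54532 features in the deposited count table and 21995 protein-coding genes. Of these 40, 32 passed the filter on low counts (13 ligands and 19 receptors), and 22 of them reached a mean of at least 5 CPM in at least 1 group. CPM is counts per 1e6 counts, scaled by TMM (edgeR's correction for library composition).

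Ligands of this family are trimeric proteins that sit in the cell membrane or are shed from it, and they bind receptors with cysteine-rich repeats. Receptors with a death domain, such as TNFR1 and Fas, can assemble complexes that activate caspases or RIPK3 and MLKL, while receptors that recruit TRAF adaptors lead to NF-kappaB and MAP kinase signalling. Macrophages are a main source of TNF, respond to it through TNFR1 and TNFR2, and carry membrane-bound family ligands that costimulate T cells or support B cells.

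The 24 libraries came from poly(A) RNA and fell into 6 groups of 4: M0, M1 (LPS and IFN-γ) and M2 (IL4), each without and with ONX-0914. Every replicate pooled the cells of several mice, and the labels call the replicates independent. Neither dose nor time, nor the strain or age of the mice, is given in the sources used here. Total counts ran from 18.2 to 22.9, in units of 1e6, and scaling factors from 0.793 to 0.884 in the M1 groups and 1.04 to 1.14 in the others. One library, M1 replicate 2, was unlike the rest of its group: mitochondrial genes took 0.3% of its counts and 1.07% to 1.14% of those of the other M1 libraries. Members' calls that changed when it was left out are also given without it. All 10 macrophage markers were present in every group, with Lyz2 as the most abundant. With ONX-0914, 2 of them rose and 2 fell in M0, 2 rose and 6 fell in M1, and 1 rose and 5 fell in M2. Of all genes tested, 9.54% rose and 11.4% fell in M0, 16.6% and 27.7% in M1, and 17.6% and 18.8% in M2 (edgeR adjusted p under 0.05). In bulk RNA, fewer cells of a type and less RNA per cell cannot be told apart.

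Compared per length, as RPKM over the annotated exons, receptors dominated the family in M0 and M2 cells and Tnf dominated it in M1 cells. Tnfrsf1b (TNFR2) had the highest RPKM of the family in M0, 133 ± 2.55 (SD, n = 4), which was 34.6% of the summed RPKM of the members. Tnfsf12 (the ligand TWEAK) at 63.1 RPKM, Tnfrsf1a (TNFR1) at 54.3 RPKM and Ltbr (the lymphotoxin beta receptor) at 32.9 RPKM followed in M0. In M1 cells Tnf stood first at 1436 RPKM, or 58.3% of the family's sum, ahead of Tnfrsf1b at 634 RPKM and Tnfrsf1a at 131 RPKM. M2 cells again had Tnfrsf1b first, at 127 RPKM, ahead of Tnfsf12 at 50.5 RPKM. By the length of the longest transcript instead, Tnfrsf12a (53.8 RPKM) came just ahead of Tnfsf12 (53.3 RPKM) in M2, still behind Tnfrsf1b. Members with at least 1 RPKM numbered 17 in M0, 23 in M1 and 16 in M2.

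M1 cells differed from M0 cells in most of the family. Of 32 members tested, 20 rose and 8 fell (edgeR adjusted p under 0.05), where 68.8% of all 14692 genes tested were called, 34.6% higher and 34.2% lower. The median log2 change of the 32 members was 1.01, against -0.02 over all genes. Among ligands 9 rose and 3 fell, and among receptors 11 rose and 5 fell. The largest rises at 5 CPM or more were those of Tnf, Tnfsf10, Tnfsf15, Tnfrsf8 and Tnfsf9, and the largest falls those of Tnfrsf26, Tnfsf12 and Tnfsfm13.

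**Figure D1:**
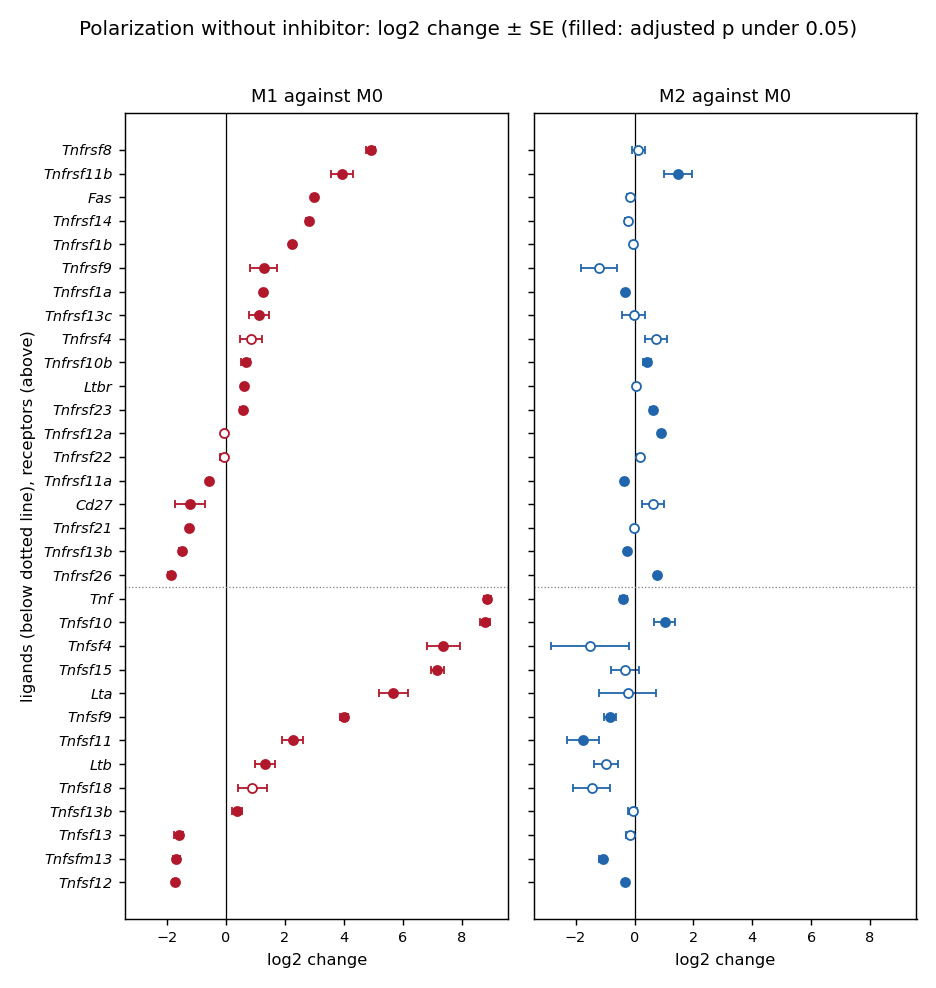
Log2 change of the 32 tested members in M1 against M0 (left) and M2 against M0 (right), with bars for the standard error and filled points where the edgeR adjusted p is under 0.05. Both panels have the same horizontal axis and share the M0 libraries. The M1 changes reach 8.87 (Tnf), while the M2 changes of members with at least 5 CPM in either group stay between -1.09 (Tnfsfm13) and 0.91 (Tnfrsf12a).

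Tnf, the founding cytokine of the family, read 4.39, 5.54, 5.36 and 4.80 CPM in the M0 libraries and 2312, 2504, 2308 and 2293 CPM in the M1 libraries. Every M1 library was far above every M0 library, a 469-fold difference (log2 8.87 ± 0.11 SE, edgeR adjusted p = 1.29e-28). Tnfsf10 (TRAIL, which can start apoptosis through its death receptor) went from 0.145, 0.343, 0.338 and 0.331 CPM in M0 to 136, 108, 145 and 139 CPM in M1. The M0 values lay near the 0.124 to 0.151 CPM that 3 counts make in M0 and M2 libraries, so the fold of 457 (log2 8.80 ± 0.17, adjusted p = 1.01e-25) rests on few M0 counts. Tnfsf15 (TL1A, a T cell costimulator) had 0.145 to 0.539 CPM in M0 and 52.9, 38.9, 55.5 and 51.8 CPM in M1, with no overlap (log2 7.18 ± 0.21, adjusted p = 1.14e-21). Tnfsf9 (4-1BBL, the ligand of the T cell receptor 4-1BB) read 1.69, 2.11, 1.69 and 1.74 CPM in M0 and 28.3, 31.5, 28.9 and 26.7 CPM in M1. It rose 16-fold (log2 4 ± 0.14, adjusted p = 6.07e-20), and the groups did not overlap.

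The ligands that fell in M1 lie together on chromosome 11. Tnfsf12 read 95.8, 95.8, 91.9 and 98.9 CPM in M0 and 28.2, 33.7, 26.0 and 26.6 CPM in M1, a 3.34-fold lower level with no overlap (log2 -1.74 ± 0.07, adjusted p = 2.81e-18). Tnfsf13 (APRIL, a B cell and plasma cell survival factor) fell from 11.5 to 14.1 CPM in M0 to 2.64 to 6.50 CPM in M1 (log2 -1.60 ± 0.15, adjusted p = 4.94e-10). Tnfsfm13, annotated as a readthrough of both genes, fell from 13.5 to 16.0 CPM to 3.69 to 6.22 CPM (log2 -1.69 ± 0.12, adjusted p = 1.42e-12). These 3 genes share exons: 48.3% of the exonic bases of Tnfsf12 and 60% of those of Tnfsf13 also belong to Tnfsfm13. Reads of one can therefore be assigned to another, and Tnfsf13 and Tnfsfm13 also overlap the antisense gene Tnfsf13os. Tnfsf13b (BAFF, the main B cell survival factor) had 2.41 to 3.92 CPM in M0 and 3.15 to 4.91 CPM in M1, overlapping values. Its rise (log2 0.37, adjusted p = 0.0388) was not called without M1 replicate 2 (log2 0.27, adjusted p = 0.157), nor without M1 replicate 1 or M0 replicate 1, 3 or 4.

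**Figure D2:**
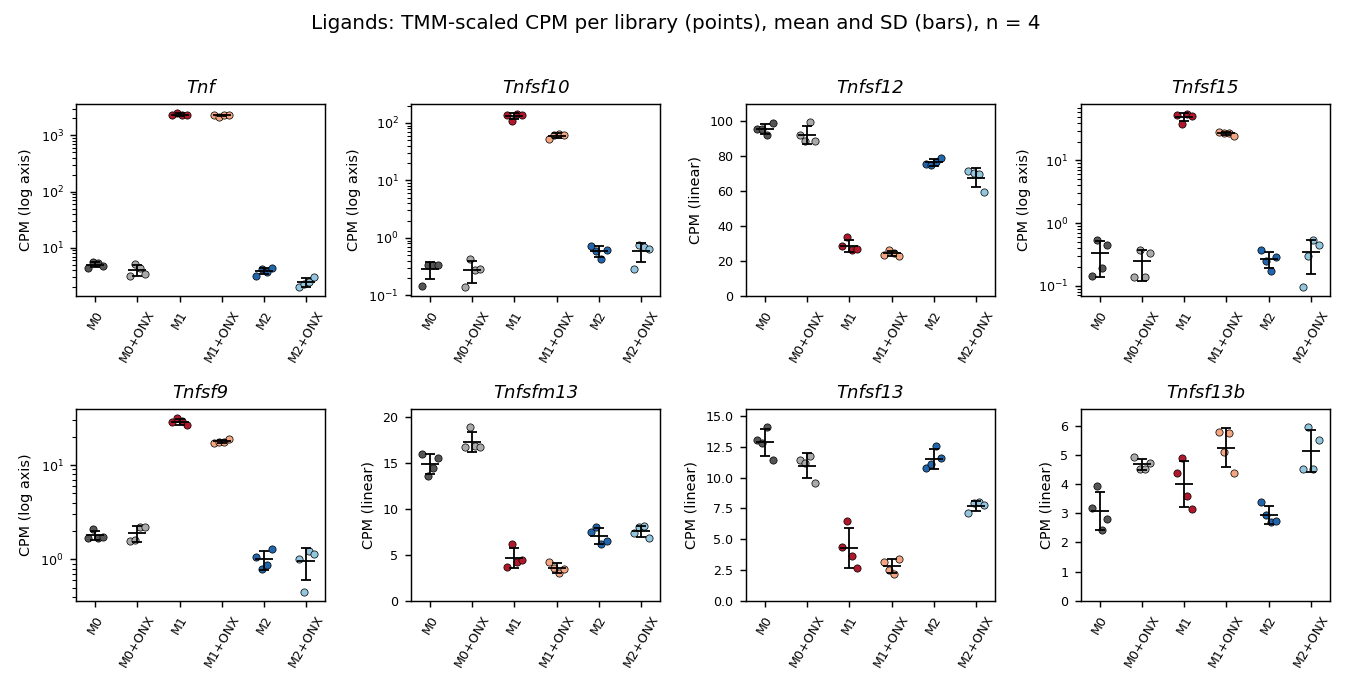
TMM-scaled CPM of the 8 ligands with at least 5 CPM in a group, by group, with 1 point per library and bars for mean and SD (n = 4). Axes are logarithmic for Tnf, Tnfsf10, Tnfsf15 and Tnfsf9, which are high only in the 2 M1 groups, and linear from 0 for the others; M1 with ONX-0914 lies below M1 for Tnfsf10, Tnfsf15 and Tnfsf9 and overlaps it for Tnf.

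Both receptors of TNF rose in M1 cells. Tnfrsf1b read 505, 508, 496 and 519 CPM in M0 and 2337, 2757, 2323 and 2271 CPM in M1. All M1 libraries exceeded all M0 libraries, by 4.78-fold on the means (log2 2.26 ± 0.06, adjusted p = 2.42e-22). Tnfrsf1a, the death domain receptor TNFR1, rose from 139.6, 139.7, 143 and 141 CPM to 319, 379.9, 343 and 319 CPM (log2 1.27 ± 0.06, adjusted p = 1.55e-17). Its groups did not overlap either.

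Fas, the death receptor of Fas ligand, had 7.81, 7.45, 6.95 and 6 CPM in M0 and 54.2, 53.9, 60.1 and 57.3 CPM in M1. That is a 7.99-fold rise without overlap (log2 3 ± 0.08, adjusted p = 6.77e-22). Tnfrsf14 (HVEM, the receptor of LIGHT and of the lymphocyte protein BTLA) read 6.85, 8.97, 6.76 and 8.44 CPM in M0 and 50.5, 62.9, 53.4 and 52.6 CPM in M1 (log2 2.82 ± 0.10, adjusted p = 2.9e-19). Tnfrsf8 (CD30, an activation marker of lymphocytes) stood at 0.828 to 1.30 CPM in M0 and at 32.4, 31.8, 29.0 and 31.4 CPM in M1. Its rise was 30.2-fold (log2 4.92 ± 0.16, adjusted p = 1.16e-20), and Tnfrsf8 lies 20.3 kb from Tnfrsf1b on chromosome 4. Smaller rises, each without overlap, were those of Ltbr (log2 0.63), Tnfrsf10b, the mouse TRAIL death receptor (log2 0.67), and Tnfrsf23, a decoy receptor for TRAIL (log2 0.58).

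Other receptors were lower in M1 cells. Tnfrsf26, a decoy-type receptor of the Tnfrsf22 and Tnfrsf23 cluster on chromosome 7, read 64.0, 58.8, 56.7 and 68.9 CPM in M0 and 16.7, 15.3, 17.5 and 17.7 CPM in M1. It fell 3.69-fold (log2 -1.88 ± 0.07, adjusted p = 1.35e-18), with all M1 libraries below all M0 libraries. Tnfrsf13b (TACI, a receptor of BAFF and APRIL) fell from 15.2 to 16.9 CPM to 4.47 to 6.43 CPM (log2 -1.49 ± 0.10, adjusted p = 4.54e-13). Tnfrsf21 (DR6, a death domain receptor) fell from 75.9 to 81.6 CPM to 30.9 to 34.9 CPM (log2 -1.26 ± 0.07, adjusted p = 8.55e-16). Tnfrsf11a (RANK, the receptor that drives osteoclast formation) fell from 34.9 to 39.2 CPM to 23.2 to 27.0 CPM (log2 -0.58 ± 0.07, adjusted p = 3.49e-08). Tnfrsf22 had 5.11 to 6.04 CPM in M0 and 4.96 to 5.53 CPM in M1 and was not called. Tnfrsf12a (Fn14, the receptor of TWEAK) had 26.1 to 32.3 CPM in M0 and 24 to 34.3 CPM in M1 and was not called (adjusted p = 0.588). Without M1 replicate 2, which held the highest of these values, it was called lower (log2 -0.19, adjusted p = 0.0296).

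**Figure D3:**
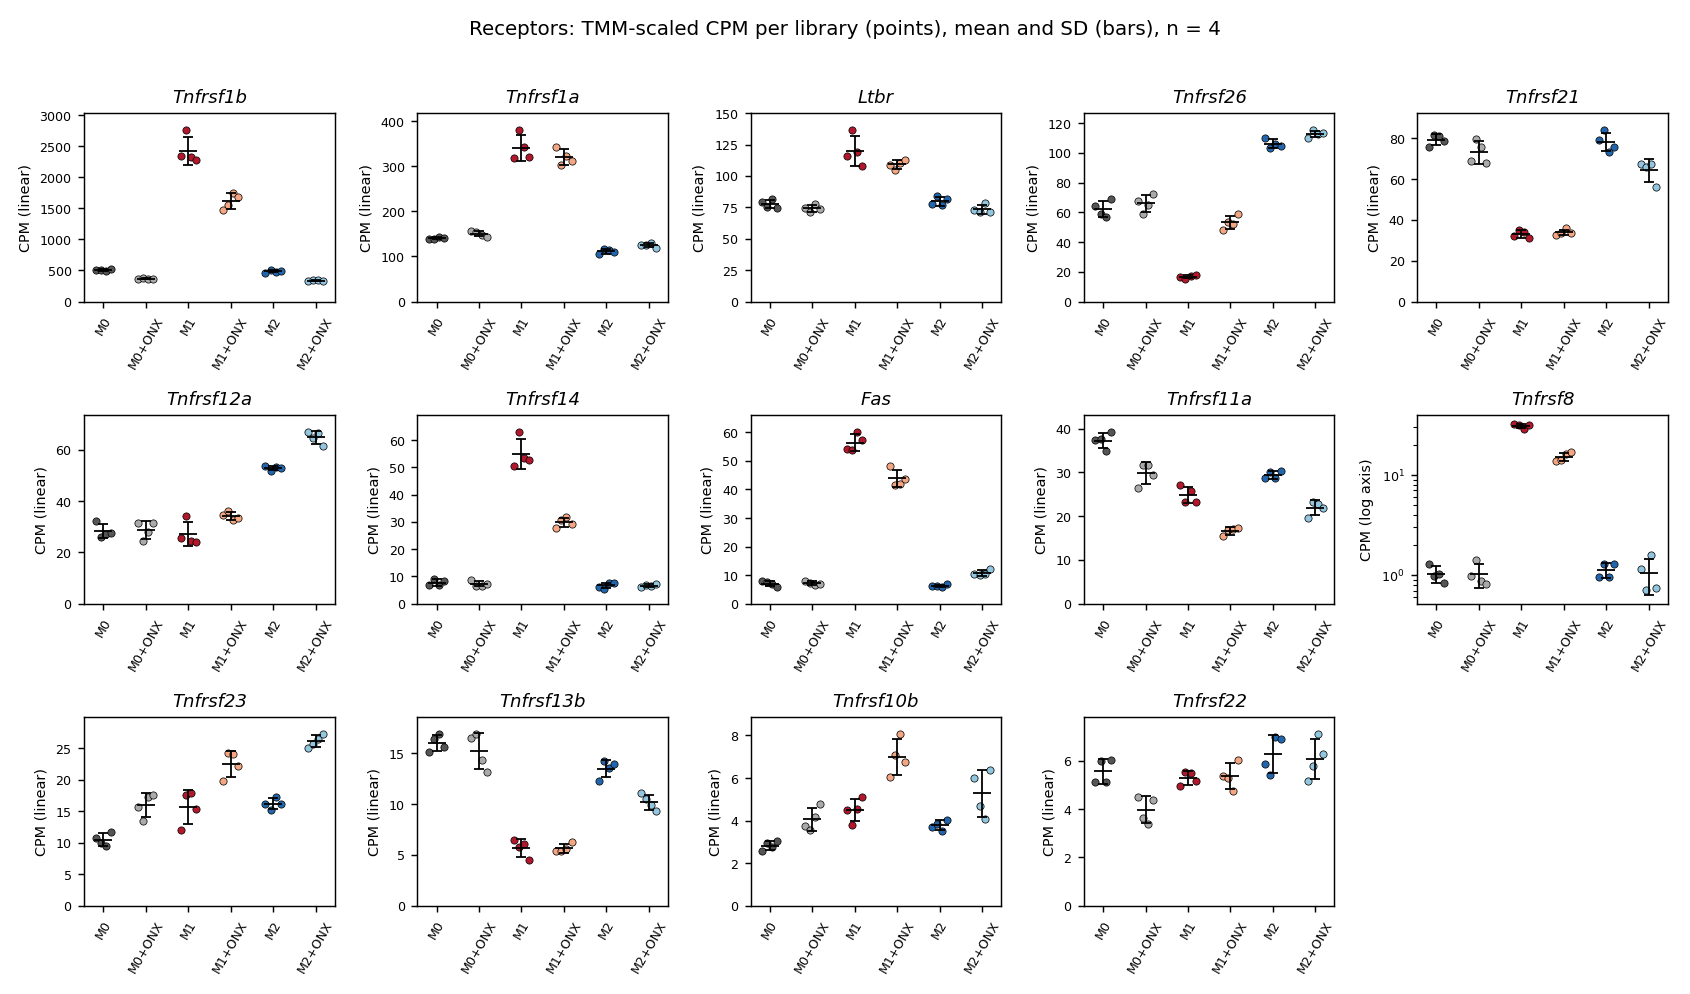
TMM-scaled CPM of the 14 receptors with at least 5 CPM in a group, by group, with 1 point per library and bars for mean and SD (n = 4). Axes are logarithmic or linear as written on each panel; Tnfrsf26 is lowest in M1 (15.3 to 17.7 CPM) and Tnfrsf1b is lower with ONX-0914 in all 3 states.

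The promoters of 4 members with large M1 rises are shown because they differ in whether they hold letters that match the motifs searched. Each run is the 250 bases before the RefSeq start (GRCm38.p6), written 5′ to 3′ on the strand of the gene, and capitals mark matches. In Fas (chr19:34290409-34290658, plus strand) the capitals are a GAS motif (interferon-gamma-activated site), TTCNNNGAA. Tnfrsf1b (chr4:145246871-145247120, minus strand) holds a GAS match and an IRF motif, GAAA and GAAA with any 2 bases between, here read on the opposite strand. The window of Tnfrsf8 (chr4:145315165-145315414, minus strand) holds 2 overlapping matches to the NF-kappaB consensus. For Tnf (chr17:35202008-35202257, minus strand) no match to the 5 motifs searched lies in this window.
Fas: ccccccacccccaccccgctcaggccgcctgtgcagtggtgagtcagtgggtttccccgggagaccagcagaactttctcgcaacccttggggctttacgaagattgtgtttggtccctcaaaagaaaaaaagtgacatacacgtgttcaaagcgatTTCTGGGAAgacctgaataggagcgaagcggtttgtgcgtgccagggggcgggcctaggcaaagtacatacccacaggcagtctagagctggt
Tnfrsf1b: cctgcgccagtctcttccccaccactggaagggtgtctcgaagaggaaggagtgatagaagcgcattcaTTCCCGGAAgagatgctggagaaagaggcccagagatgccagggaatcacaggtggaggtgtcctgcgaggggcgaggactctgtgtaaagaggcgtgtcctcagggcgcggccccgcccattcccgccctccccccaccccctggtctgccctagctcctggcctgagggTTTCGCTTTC
Tnfrsf8: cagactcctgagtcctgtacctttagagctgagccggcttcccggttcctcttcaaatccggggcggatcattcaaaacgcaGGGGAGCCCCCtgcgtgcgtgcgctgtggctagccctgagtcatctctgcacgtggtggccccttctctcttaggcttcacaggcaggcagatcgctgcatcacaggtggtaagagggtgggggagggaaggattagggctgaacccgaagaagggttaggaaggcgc
Tnf: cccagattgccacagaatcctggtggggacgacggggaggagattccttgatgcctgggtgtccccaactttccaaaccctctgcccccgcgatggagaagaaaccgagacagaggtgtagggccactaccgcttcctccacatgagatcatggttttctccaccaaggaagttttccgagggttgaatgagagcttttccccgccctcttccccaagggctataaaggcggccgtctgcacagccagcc

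Both strands were searched, and a 250-base window could be read for 16 of the 20 members that rose in M1. GAS matches lay in 6 of these 16 (Fas, Lta, Ltb, Tnfrsf1a, Tnfrsf1b and Tnfrsf9), and 7.02% of all 32851 windows hold one. IRF matches lay in 3 (Tnfrsf14, Tnfrsf1b and Tnfsf13b; 2.98% of all windows) and NF-kappaB matches in 3 (Ltb, Tnfrsf8 and Tnfrsf9; 7.25%). A STAT6 motif, TTC and GAA with any 4 bases between, lay in 3 (5.85% of all windows), and the antioxidant response element, TGACNNNGC, in 3 (10.2%). A member was counted if any of its windows held a match, while the shares are of single windows. Tnfrsf9 and Tnfsf13b each have a second window, and their M1 rises were not called without M1 replicate 2. The counts describe letters in a window and were not tested.

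In M2 against M0, the calls were divided between rises and falls. Of the 32 members 6 rose and 8 fell, where 36.2% of all genes were called (18.7% higher and 17.5% lower), and the median log2 change was -0.16 against 0.01 over all genes. This comparison uses the same M0 libraries as M1 against M0. Ligands made up 1 of the rises and 5 of the falls.

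Receptors that rose with IL4 included Tnfrsf12a, with 53.8, 51.7, 53.1 and 53.1 CPM in M2 against 32.3, 26.1, 27.1 and 27.5 CPM in M0. Every M2 library lay above every M0 library, 1.88-fold on the means (log2 0.91 ± 0.09, adjusted p = 3.15e-09). Tnfrsf26 rose to 110.3, 103, 106 and 105 CPM from 62.1 ± 5.51 CPM in M0 (SD, n = 4; log2 0.77 ± 0.07, adjusted p = 2.74e-10). Its M2 and M1 changes against M0 thus had opposite signs. Tnfrsf23 rose from 9.51 to 11.8 CPM to 15.2 to 17.3 CPM (log2 0.63, adjusted p = 2.45e-05). Tnfrsf10b rose from 2.56 to 3.02 CPM to 3.51 to 4.05 CPM (log2 0.42, adjusted p = 0.0268), a call lost when any of 4 libraries was left out, M0 replicate 1 or 3 or M2 replicate 2 or 4 (adjusted p up to 0.0743).

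Ligands that fell in M2 were the readthrough Tnfsfm13, from 13.5 to 16.0 CPM to 6.15 to 7.99 CPM (log2 -1.09 ± 0.11, adjusted p = 1.07e-08), and Tnfsf12, from 91.9 to 98.9 CPM to 74.8 to 79.1 CPM (log2 -0.32, adjusted p = 0.000295). Tnfsf13, with 10.8 to 12.6 CPM in M2, was not called (log2 -0.16, adjusted p = 0.395). It shares exons with Tnfsfm13, so here too reads of one gene can be assigned to another. Tnfsf9 fell from 1.81 ± 0.203 CPM to 1.05, 0.799, 0.866 and 1.30 CPM (log2 -0.84 ± 0.20, adjusted p = 0.00141). Tnf read 3.21, 4.20, 3.77 and 4.29 CPM in M2, all below the M0 values (log2 -0.38 ± 0.12, adjusted p = 0.0182), and this call was lost without M0 replicate 2, M0 replicate 3 or M2 replicate 1 (adjusted p up to 0.0829). Receptors that fell were Tnfrsf1a (log2 -0.34, adjusted p = 1.83e-05), Tnfrsf11a (log2 -0.34, adjusted p = 0.000261) and Tnfrsf13b. The last, from 15.2 to 16.9 CPM to 12.3 to 14.3 CPM (log2 -0.25, adjusted p = 0.0348), was not called when M0 replicate 2 or 3 or M2 replicate 1 or 3 was left out (adjusted p up to 0.118).
Tnfrsf1b, Fas, Tnfrsf14, Tnfrsf8, Ltbr and Tnfrsf21 were not called, with log2 changes between -0.22 (Tnfrsf14) and 0.13 (Tnfrsf8). Tnfsf10 rose from 0.289 to 0.598 ± 0.124 CPM (log2 1.02, adjusted p = 0.0272), with 0.433 to 0.733 CPM in M2 above all M0 values, and this was not called without M0 replicate 1 or M2 replicate 1, 2 or 4 (adjusted p up to 0.0944). At low levels, Tnfrsf11b rose (log2 1.47, adjusted p = 0.0143) and Tnfsf11 fell (log2 -1.76, adjusted p = 0.0134).

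In M1 cells with ONX-0914 5 members rose and 14 fell, where 44.3% of all genes were called, 16.6% higher and 27.7% lower. The median log2 change was -0.30 over the members and -0.08 over all genes. Among ligands 1 rose and 8 fell (median log2 -0.56), and among receptors 4 rose and 6 fell (median log2 -0.09). Without M1 replicate 2, 5 members rose and 12 fell: the 3 ligands Tnfsf12, Tnfsf13 and Tnfsfm13 lost their calls, and the receptor Tnfrsf11b gained one (log2 -0.69, adjusted p = 0.0451; -0.59 and 0.0821 with all libraries). The M1 libraries are the same as those of M1 against M0, so the 2 sets of changes are not independent.

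Tnf itself was not called in M1 cells under the inhibitor. It read 2261, 2144, 2318 and 2329 CPM with ONX-0914, overlapping the 2293 to 2504 CPM of M1 cells (log2 -0.06 ± 0.08 SE, adjusted p = 0.581). Tnfsf10 fell to 52.5, 62.4, 64.1 and 62.1 CPM from 108 to 145 CPM, 2.19-fold lower without overlap (log2 -1.13 ± 0.09, adjusted p = 5.9e-11). Tnfsf15 fell to 28.5, 27.7, 27.7 and 24.3 CPM from 38.9 to 55.5 CPM (log2 -0.88 ± 0.12, adjusted p = 1.13e-06). Tnfsf9 fell to 17.1, 17.6, 17.7 and 19.0 CPM from 26.7 to 31.5 CPM (log2 -0.69 ± 0.11, adjusted p = 6.91e-06). All 3 ligands stayed far above their M0 means, which were 0.289 CPM for Tnfsf10, 0.333 CPM for Tnfsf15 and 1.81 CPM for Tnfsf9.

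The chromosome 11 ligands fell by amounts that depended on M1 replicate 2. Tnfsf12 read 23.4, 26.3, 24.5 and 22.9 CPM with ONX-0914 and overlapped M1 (log2 -0.23, adjusted p = 0.0119; without that library log2 -0.15, adjusted p = 0.0745). Tnfsf13 gave log2 -0.59 with adjusted p = 0.0119, and log2 -0.33 with adjusted p = 0.11 without it. For Tnfsfm13 log2 was -0.37 with adjusted p = 0.0376, and -0.21 with adjusted p = 0.239 without it. In all 3 genes M1 replicate 2 held the highest M1 value. None of the 3 calls held in a fit to the M1 libraries with and without ONX-0914 alone (adjusted p from 0.153 to 0.239), and that of Tnfsfm13 was also lost without ONX-treated M1 replicate 2, 3 or 4.

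Among receptors, Tnfrsf1b fell to 1472, 1558, 1747 and 1688 CPM from 2271 to 2757 CPM, 1.5-fold on the means (log2 -0.58 ± 0.06, adjusted p = 4.8e-09). Tnfrsf8 fell to 13.7, 14.3, 16.1 and 16.9 CPM (log2 -1.03 ± 0.11, adjusted p = 3.27e-08), and Tnfrsf14 to 27.8, 30.7, 31.8 and 29.3 CPM (log2 -0.88 ± 0.09, adjusted p = 1.49e-08). None of these groups overlapped M1. Fas fell to 48.2, 41.7, 42.1 and 43.8 CPM from 53.9 to 60.1 CPM (log2 -0.36 ± 0.07, adjusted p = 0.000248), and Tnfrsf11a to 15.3, 16.8, 17.1 and 17.2 CPM from 23.2 to 27.0 CPM (log2 -0.58 ± 0.07, adjusted p = 3.67e-07). Tnfrsf1a (302 to 343 CPM with ONX-0914), Ltbr (105 to 113 CPM), Tnfrsf21 (32.8 to 35.9 CPM) and Tnfrsf13b (5.35 to 6.28 CPM) overlapped M1 and were not called. The change of Ltbr (adjusted p = 0.0739) was called without M1 replicate 4 (0.0167).

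Tnfrsf26 showed the largest change of any member under the inhibitor at 5 CPM or more. With ONX-0914 the M1 libraries read 48.0, 53.6, 52.1 and 59.0 CPM, against 15.3 to 17.7 CPM without it, so the groups were far apart. The rise was 3.16-fold (log2 1.66 ± 0.07, adjusted p = 6.17e-16), to a mean of 53.2 ± 4.53 CPM (SD, n = 4) beside 62.1 ± 5.51 CPM in M0. In M0 cells ONX-0914 gave 68.0, 59.1, 64.8 and 72.1 CPM (log2 0.09, adjusted p = 0.396), and in M2 cells 109.7, 115, 113 and 113 CPM against 103 to 110.3 CPM (log2 0.09, adjusted p = 0.324). The effect in M1 differed from that in M0 (difference of log2 changes 1.57 ± 0.10, adjusted p = 1.94e-11) and from that in M2 (1.57 ± 0.10, adjusted p = 2.27e-11). Its neighbours on chromosome 7 gave other values: Tnfrsf22, 6.08 kb away, read 4.74 to 6.04 CPM in M1 with ONX-0914 (log2 0.02, adjusted p = 0.924). Tnfrsf23, a further 16.1 kb along, rose by log2 0.52. The 3 genes are paralogs, between which reads could be split, and Tnfrsf23 and Tnfrsf26 overlap an antisense gene, E230032D23Rik, over 4.14% and 3.33% of their exonic bases.

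**Figure D4:**
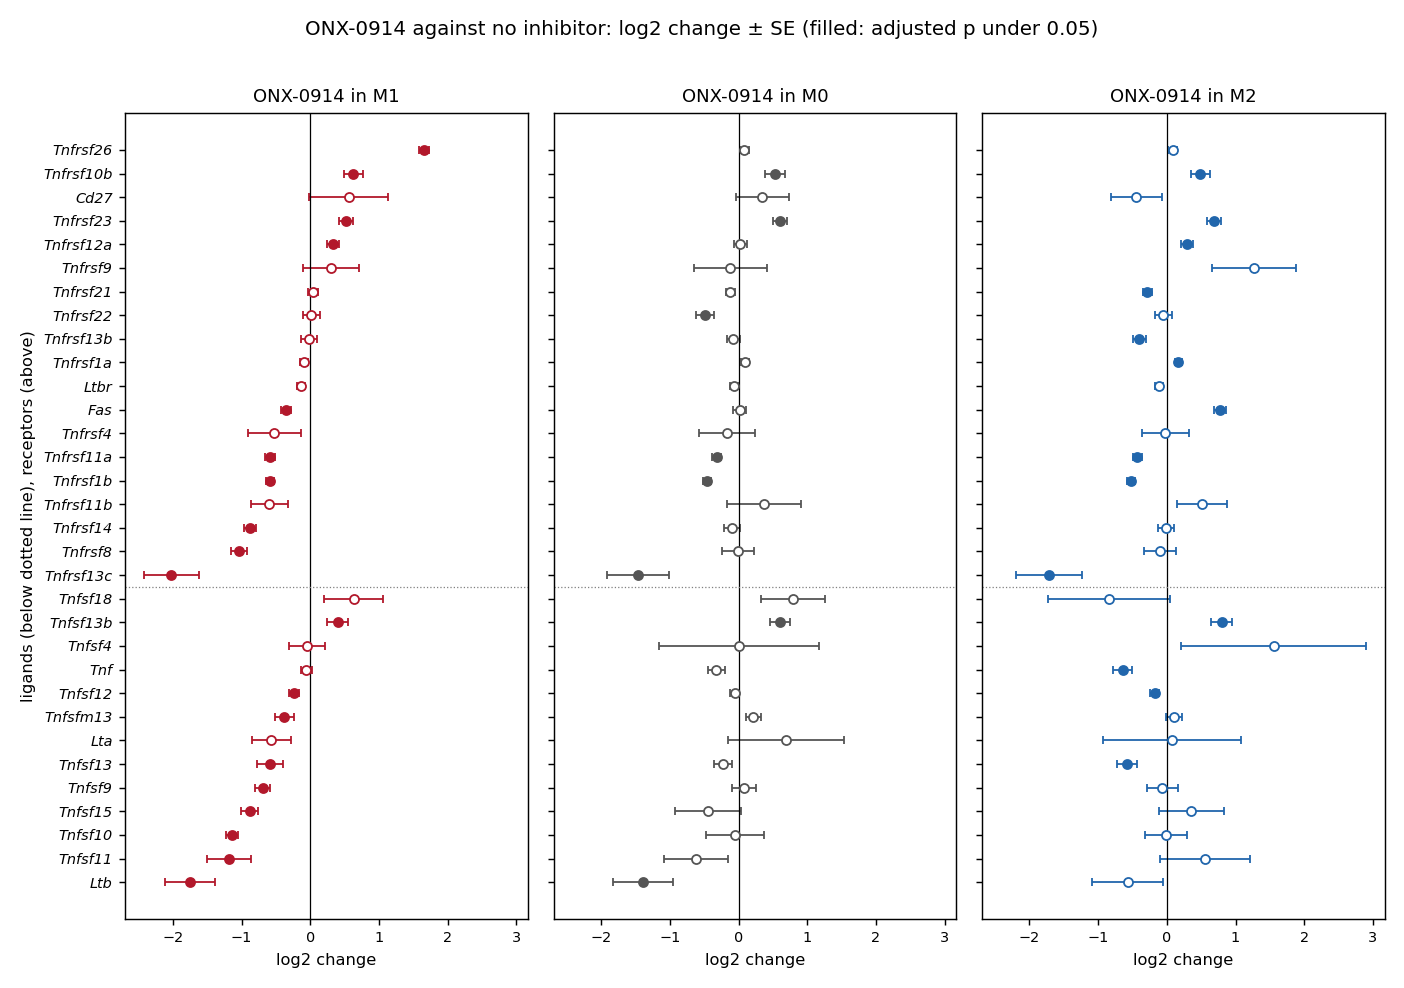
Log2 change of the 32 tested members with ONX-0914 against without it in M1 (left), M0 (middle) and M2 cells (right), on 1 common horizontal axis, with bars for the standard error and filled points where the edgeR adjusted p is under 0.05. Tnfrsf26 stands out to the right in M1 (1.66), Tnfrsf13c lies to the left in all 3 states (-2.02 in M1, -1.46 in M0 and -1.72 in M2), and Fas lies on opposite sides in M1 (-0.36) and M2 (0.77).

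With ONX-0914 in M0 cells 3 members rose and 5 fell, where 21.0% of all genes were called (9.54% higher and 11.4% lower), and the median log2 change was -0.05. In M2 cells 6 rose and 8 fell, where 36.4% of all genes were called (17.6% higher and 18.8% lower), with a median of -0.01. The 3 comparisons of ONX-0914 share no library.

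Members called in the same direction in all 3 states were 3 that rose (Tnfrsf10b, Tnfrsf23 and Tnfsf13b) and 3 that fell (Tnfrsf1b, Tnfrsf11a and Tnfrsf13c). The shares of all genes called alike in all 3 states, or in opposite directions between states, were not counted. Whether these numbers are unusual therefore cannot be read from them. Tnfrsf1b fell to 366, 386, 357 and 365 CPM in M0 cells (log2 -0.46 ± 0.06, adjusted p = 1.52e-06) and to 339, 347, 343 and 324 CPM in M2 cells from 464, 504, 479 and 496 CPM (log2 -0.52 ± 0.06, adjusted p = 6e-08). In all 3 states each library with ONX-0914 lay below each library without it. Tnfrsf11a fell by 0.32, 0.58 and 0.43 on the log2 scale in M0, M1 and M2, also without overlap. In M2 cells, for example, it read 19.5, 23.3, 22.9 and 21.9 CPM with the inhibitor and 28.6, 30.1, 28.7 and 30.4 CPM without it.

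Tnfrsf23 rose to 15.6, 13.4, 17.3 and 17.6 CPM in M0, to 19.8, 24.3, 24.1 and 22.1 CPM in M1 and to 25.0, 25.6, 26.4 and 27.2 CPM in M2. Each library with ONX-0914 lay above each without it, and the log2 changes were 0.61, 0.52 and 0.69. Tnfrsf10b, which binds TRAIL, rose to 3.54 to 4.79 CPM in M0, 6.05 to 8.06 CPM in M1 and 4.07 to 6.40 CPM in M2, again without overlap in any state. Its log2 changes were 0.52, 0.63 and 0.49, and the M0 call was lost without M0 with ONX-0914 replicate 4 (adjusted p = 0.0516). Tnfsf13b rose by log2 0.60 in M0 (4.52 to 4.93 CPM with ONX-0914), 0.40 in M1 (4.38 to 5.80 CPM, overlapping M1) and 0.80 in M2 (4.52 to 5.97 CPM). The M1 call (adjusted p = 0.0355) was lost without replicate 3 or 4 of M1 or replicate 1 or 3 of ONX-treated M1 (adjusted p up to 0.134). No difference between states in the effect on these 6 members was called in the 3 interaction tests, which does not show that the effects are equal. Without M1 replicate 2 the effect on Tnfrsf11a was called lower in M1 than in M0 (difference -0.29, adjusted p = 0.0308), as it was without ONX-treated M0 replicate 1.

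Fas was the 1 member called in opposite directions. In M2 cells it rose with ONX-0914, from 6.33, 6.09, 5.93 and 6.84 CPM to 10.4, 9.94, 10.5 and 12.2 CPM (log2 0.77 ± 0.09, adjusted p = 1.4e-07), while it fell in M1 cells as given above. In M0 cells the libraries with ONX-0914 read 8, 7.17, 6.44 and 6.92 CPM, overlapping those without it (log2 0.02, adjusted p = 0.919). The effect in M1 minus that in M2 was -1.13 ± 0.12 on the log2 scale (adjusted p = 1.37e-07), and the effect in M2 minus that in M0 was 0.75 ± 0.13 (adjusted p = 0.000522). M1 minus M0 gave -0.38 (adjusted p = 0.0258), which was not called when M1 replicate 3, M0 replicate 4 or ONX-treated M0 replicate 1 was left out (adjusted p up to 0.0753) and not in a fit to the libraries of those 4 groups alone (adjusted p = 0.117).

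The remaining calls of described members under ONX-0914 were mostly in M2 cells. Tnf fell to 2, 2.31, 2.48 and 3.07 CPM from 3.21 to 4.29 CPM (log2 -0.65 ± 0.14, adjusted p = 0.000681). In M0 cells its 3.21 to 5.09 CPM overlapped the M0 values (log2 -0.33, adjusted p = 0.0625). That change was called with the DESeq2 Wald test (0.0263), voom (0.0392) and no filter (0.0234), and without M0 replicate 1 (0.0448), ONX-treated M0 replicate 2 (log2 -0.46, adjusted p = 0.00917), M1 replicate 2 (0.0362) or ONX-treated M2 replicate 4 (0.0497). Tnfsf13 fell to 7.11, 7.93, 8.04 and 7.78 CPM from 10.8 to 12.6 CPM (log2 -0.58 ± 0.14, adjusted p = 0.0017). Tnfrsf13b fell to 9.37 to 11.1 CPM from 12.3 to 14.3 CPM (log2 -0.40, adjusted p = 0.00126), and Tnfrsf21 to 55.9 to 67.5 CPM from 73.4 to 84.0 CPM (log2 -0.28, adjusted p = 0.000781). Tnfrsf12a rose to 61.3 to 66.9 CPM from 51.7 to 53.8 CPM (log2 0.29, adjusted p = 0.00779) and in M1 to 32.6 to 36.2 CPM, overlapping M1 (log2 0.33, adjusted p = 0.00427). Its effect in M1 minus that in M0 was 0.31 (adjusted p = 0.1), and 0.43 (adjusted p = 0.00161) without M1 replicate 2. Tnfrsf1a rose to 119 to 129.7 CPM from 105 to 116 CPM in M2 (log2 0.17, adjusted p = 0.0189), which was not called without M2 replicate 1 or ONX-treated M2 replicate 3 (adjusted p up to 0.0739) or with DESeq2 size factors (0.0584). Tnfsf12 fell to 59.5 to 71.3 CPM from 74.8 to 79.1 CPM in M2 (log2 -0.17, adjusted p = 0.0419), and this call was lost when any M2 library, or ONX-treated M2 replicate 3 or 4, was left out (adjusted p up to 0.192). Ltbr read 71.2 to 78.8 CPM with and 76.6 to 84.3 CPM without ONX-0914 in M2 and was not called (log2 -0.12, adjusted p = 0.12), but was without M1 replicate 2 (0.0354), with DESeq2 size factors (0.0418), with the DESeq2 Wald test (0.0372) and with voom (0.0334). Tnfrsf22 fell in M0 cells, to 3.38 to 4.51 CPM from 5.11 to 6.04 CPM (log2 -0.49, adjusted p = 0.00548).

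The interaction tests compared the effect of ONX-0914 between states directly. Between M1 and M0, 2 members were called higher and 5 lower, where 19.3% of all genes were called (6.90% higher and 12.4% lower). Between M1 and M2, 3 were higher and 5 lower, where 13.5% of all genes were called (3.80% higher and 9.68% lower). Between M2 and M0 the 1 member called was Fas, where 6.17% of all genes were called (3.44% higher and 2.74% lower). Tnfrsf8 fell more in M1 than in M0 (difference -1.02 ± 0.26, adjusted p = 0.00599) and than in M2 (-0.93 ± 0.26, adjusted p = 0.0156; not called without M2 with ONX-0914 replicate 3, adjusted p = 0.106). Tnfrsf14 did likewise (M1 minus M0 -0.78, adjusted p = 0.000324; M1 minus M2 -0.87, adjusted p = 0.000176). Its M0 libraries with ONX-0914 read 6.55 to 8.60 CPM and its M2 libraries 6.01 to 7.09 CPM.

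Tnfsf9 fell more in M1 than in M0 (-0.77 ± 0.21, adjusted p = 0.00892), and Tnfsf10 more in M1 than in M2 (-1.12 ± 0.33, adjusted p = 0.0217). The latter was not called without M2 replicate 3 or ONX-treated M2 replicate 2, 3 or 4 (adjusted p up to 0.0827). Tnfsf10 was near the counting floor outside M1, at 0.28 CPM in M0 and 0.595 CPM in M2 with ONX-0914, and its M1 minus M0 difference (adjusted p = 0.0958) was not called. Leaving out M1 replicate 2 made it -1.17 (adjusted p = 0.0364). Tnfsf15 was called in M1 alone, but neither difference was called (M1 minus M2 adjusted p = 0.107; 0.0351 without M1 replicate 2 and 0.03 without ONX-treated M2 replicate 1).

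The other 10 tested members stayed under 5 CPM in every group. Lta (lymphotoxin alpha, 1.16 kb from Tnf on chromosome 17) rose from 0.0691 to 3.93 ± 0.93 CPM in M1 (adjusted p = 3.48e-11), and Tnfrsf11b (osteoprotegerin, a soluble decoy receptor of RANKL) from 0.196 to 3.12 ± 0.592 CPM (adjusted p = 4.23e-10). Tnfsf4 (OX40L, a T cell costimulator) had 1 count over the M0 libraries and 189 over the M1 libraries. That was 256 times as many relative to TMM-scaled library size (95% counting interval 45.5 to 10184). Tnfsf11 (RANKL) rose to 1.42 ± 0.209 CPM in M1 and fell with ONX-0914 to 0.623 ± 0.123 CPM (log2 -1.18, adjusted p = 0.00387). Tnfrsf4, Tnfrsf9, Tnfsf18 and Cd27 had means of at most 0.929 CPM. Of these, Tnfrsf9 was called higher and Cd27 lower in M1, and neither call held without M1 replicate 2 (adjusted p = 0.0916 for Tnfrsf9 and 0.106 for Cd27). Tnfrsf9 was also not called without M0 replicate 4, nor Cd27 without M1 replicate 1 or M0 replicate 1, 2 or 3.

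Tnfrsf13c (the BAFF receptor of B cells) and Ltb (lymphotoxin beta, made by lymphocytes) were among these low genes. Tnfrsf13c fell with ONX-0914 from 0.427 to 0.153 CPM in M0, from 0.942 to 0.233 CPM in M1 and from 0.417 to 0.124 CPM in M2 (adjusted p = 0.022, 0.000186 and 0.00625). Ltb fell from 0.436 to 0.163 CPM in M0 and by 1.75 on the log2 scale to 0.32 CPM in M1 (adjusted p = 0.0232 and 0.000277) but was not called in M2. Both genes had been higher in M1 than in M0 (log2 1.13 for Tnfrsf13c, 1.32 for Ltb). The M0 calls of both were lost without some single libraries, with adjusted p up to 0.0855 for Tnfrsf13c (replicate 3 or 4 of M0, replicate 1 or 3 of ONX-treated M0) and 0.0853 for Ltb (replicate 4 of M0, replicate 1 or 2 of ONX-treated M0). Of 10 B cell markers, 8 passed the filter, and 8, 7 and 8 of them fell with ONX-0914 in M0, M1 and M2. Their summed level was 106 to 113 CPM in M0 and 60.6 to 66.7 CPM with ONX-0914, 76.9 to 89.4 and 39.3 to 44.6 CPM in M1, and 114 to 122 and 59.9 to 67.6 CPM in M2. Cd22 carried most of each sum and no marker was at 0 in any group, and the part of B cell RNA in these results was not tested. In M1 against M0, where Tnfrsf13c and Ltb rose, 1 of the 8 markers rose and 4 fell. Nor was it tested for Tnfrsf13b, which fell with ONX-0914 in M2 and in M1 against M0.

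Of 14 T and NK cell markers 1 passed the filter, Lck, which carried most of their summed level in M1. The sum was 3.62 to 4.15 CPM in M0, 18.8 to 24.9 CPM in M1 and 8.09 to 13.4 CPM in M1 with ONX-0914. Lck alone had means of 2.24, 19.2 and 10.1 CPM in these groups, so the sum moved with this 1 marker of the 14. Like Lck, Ltb, Tnfsf9, Tnfsf10, Tnfsf11, Tnfsf15, Fas, Tnfrsf1b, Tnfrsf8, Tnfrsf13c and Tnfrsf14 were called higher in M1 and lower in M1 with ONX-0914. The share of all genes called in this way was not counted. Lck also fell with ONX-0914 in M0, where of these members Ltb, Tnfrsf1b and Tnfrsf13c were called lower and the others were not called. Ncr1 was at 0 in every group, and Cd3d, Cd3g and Klrb1c were also at 0 in M1 with ONX-0914. The part of T or NK cell RNA in the values of these members was not tested.

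Markers of some further cell types also moved with the groups. Of 8 neutrophil markers 3 were tested, and their summed level, mostly Csf3r, was 45.3 to 54.7 CPM in M0, 137 to 158 CPM in M1 and 104 to 117 CPM in M1 with ONX-0914, while S100a9, Ly6g and Retnlg were at 0 in every group. Of 8 dendritic cell markers 5 were tested, with sums of 6.32 to 8.62 CPM in M0, 10 to 14 CPM in M1, 32.8 to 35.8 CPM in M2 and 16.5 to 22.5 CPM in M2 with ONX-0914, most of the M2 sums being Batf3. Of 7 mast cell and basophil markers 1 was tested. Their sums were 1.16 to 2.94 CPM in M0 and 0.365 to 0.93 CPM with ONX-0914. In M1 they were 0.315 to 0.7 and 0.18 to 0.65 CPM, and in M2 0.916 to 1.39 and 0.143 to 0.402 CPM. All 7 markers of mesothelial cells and fibroblasts were tested, with sums between 505 and 804 CPM over all groups, which overlapped between M0, M1 and M2. Single markers were called all the same: 1 rose and 3 fell in M1 against M0, and 2 fell in M2 against M0. With ONX-0914 none was called in M0, 2 fell in M1 and 1 fell in M2. The part of these cell types in the members' values was not tested.

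The 8 members that did not pass the filter had 5 to 107 counts each over all 24 libraries. They were Fasl (5 counts), Cd70 (17), Tnfrsf25 (19), Tnfrsf17 (26), Tnfsf14 (60), Tnfsf8 (92), Tnfrsf18 (93) and Tnfrsf19 (107). Fasl, the ligand of Fas, never exceeded 1 count in a library. Cd70 had no count in M0 and 11 in M1. Set against 3 counts over the M0 group, relative to TMM-scaled library size, the M1 level was 4.98-fold higher. That ratio leaves out the counting error of the 11.

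Of 53 signalling genes downstream of the receptors, listed for this account, all were tested. In M1 against M0, 46 rose and 2 fell, with a median log2 change of 1.00, beside 34.6% of all genes called higher and 34.2% lower. All 9 genes of the NF-kappaB list and all 7 of the death complex list rose. Traf1, a TRAF adaptor, rose from 8.39 to 254 CPM, Mlkl, the executor of necroptosis, from 16.3 to 340 CPM, and Nfkbie, an NF-kappaB inhibitor, from 10.6 to 188 CPM. In M2 against M0, 12 rose and 9 fell, beside 36.2% of all genes called, and among them were Traf5 (log2 1.28), Traf1 (log2 -1.07) and the NF-kappaB subunit gene Rel (log2 0.80).

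With ONX-0914, 5 of the 53 signalling genes rose and 8 fell in M0, 6 rose and 28 fell in M1, and 12 rose and 11 fell in M2. Over all genes 21.0% were called in M0, 44.3% in M1 (16.6% higher and 27.7% lower) and 36.4% in M2. In M1 cells 7 of the 9 NF-kappaB genes fell and none rose, and 7 of the 11 ubiquitin ligases and editors fell. The kinase genes Map3k5 (log2 -1.04) and Ikbke (log2 -0.68) fell, as did Adam17 (log2 -0.71), which encodes the protease that sheds TNF and its receptors, from 608 to 371 CPM. Mlkl rose with ONX-0914 in all 3 states, from 16.3 to 47.0 CPM in M0 (log2 1.53), from 340 to 463 CPM in M1 (log2 0.45) and from 16.1 to 89.5 CPM in M2 (log2 2.48). Its effect differed between all 3 pairs of states (M1 minus M2 -2.03, adjusted p = 6.96e-16). In M0 Relb (log2 -0.61) and Map3k5 (log2 -0.36) fell, and in M2 Traf3 rose (log2 0.66) and Map3k5 fell (log2 -1.03).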

How the data were processed

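Poly(A) RNA of 24 libraries was sequenced as pairs. The authors deposited raw counts per Ensembl gene, whole numbers without normalization; the submitters' processing notes name FastQC 0.11.9, cutadapt 2.8, Bowtie2 2.2.5, Picard and mm10. What counted the reads, with which strand setting and annotation release, is not given in the sources used here. Symbols and lengths came from GENCODE M21, which matched 54495 of 54532 features; 0.00253% of counts fell on features without a symbol. Samples were grouped by their labels. In R 4.3.3, edgeR 4.0.16 kept 14692 genes (filterByExpr), scaled by TMM and fitted group means by quasi-likelihood to all 24 libraries (18 residual degrees of freedom). A call is an adjusted p (Benjamini-Hochberg, all tested genes) under 0.05 in 5 pairwise comparisons and 3 differences of effects.

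Tested members with a mean of at least 5 CPM in a group are described by library, others by means, and those not tested by counts. Of the signalling list, the 3 called genes with the largest change at 5 CPM or more were taken per pairwise comparison; Mlkl is also given for ONX-0914 in M1, chosen after its values were seen. Members and lists were chosen with earlier results of these data known. At total counts of 18.2 to 22.9 (units of 1e6), 3 counts, the limit that a count of 0 allows, equal 0.124 to 0.207 CPM; floors and counting intervals cover counting error only. Alternatives were DESeq2 1.42.0 size factors and Wald test, limma 3.58.1 voom with quality weights, no filter, at least 1 CPM in 4 libraries, a fit to the compared libraries alone, the replicate number as a block, a log2 minimum of 1 on calls, and omission of single libraries. The model was also run on counts simulated from its own fitted means and spread, for ONX-0914 in M1. Such counts cannot show where the model fails on the real libraries. Promoter windows came from RefSeq (GRCm38.p6). No library was left out.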

Additional observations from a re-analysis of the deposited data

Results flagged for a closer look

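In 9 of 132 sets of 4 libraries (22 members by 6 groups) 1 library lay far from the other 3, where chance gives about 1 in 20. Of these, 3 were M1 replicate 2: Tnf at 2504 CPM, Tnfrsf1b at 2757 CPM and Tnfrsf12a at 34.3 CPM were each the highest of their group. M2 with ONX-0914 replicate 4 was the lowest of its group for Tnfrsf21 (55.9 CPM) and Tnfsf12 (59.5 CPM). The others were Tnfsf10 in M0 replicate 1 (0.145 CPM, low) and in M1 with ONX-0914 replicate 1 (52.5 CPM, low), Tnfsf9 in M0 replicate 2 (2.11 CPM, high) and Tnfsfm13 in M0 with ONX-0914 replicate 2 (18.95 CPM, high).

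The effect of ONX-0914 differed between states by the interaction test in 16 cases. M1 minus M0 gave log2 differences of 1.57 for Tnfrsf26 and 0.51 for Tnfrsf22, and of -1.02 for Tnfrsf8, -0.78 for Tnfrsf14, -0.77 for Tnfsf9, -0.59 for Tnfsfm13 and -0.38 for Fas. M2 minus M0 gave 0.75 for Fas. M1 minus M2 gave 1.57 for Tnfrsf26, 0.59 for Tnf, 0.32 for Tnfrsf21, -0.26 for Tnfrsf1a, -0.87 for Tnfrsf14, -0.93 for Tnfrsf8, -1.12 for Tnfsf10 and -1.13 for Fas. Some of these calls were lost when 1 library was left out. The Tnfsfm13 difference was not called without M1 replicate 2 (-0.43, edgeR adjusted p = 0.0581) or ONX-treated M1 replicate 3 (-0.51). That of Tnf was lost without ONX-treated M2 replicate 1 (0.50, adjusted p = 0.0528), and that of Tnfrsf21 without M2 replicate 2 (0.28, adjusted p = 0.0517). The Tnfrsf1a difference was lost without replicate 2 or 4 of ONX-treated M1, 1 or 4 of M2 or 3 of ONX-treated M2, with DESeq2 size factors (-0.21) and in a fit to those 4 groups alone (-0.16). The Tnfrsf22 difference (adjusted p = 0.0461) was lost without replicate 2 or 4 of M0, 2 or 3 of ONX-treated M0, 1, 3 or 4 of M1, 1, 2 or 4 of ONX-treated M1, 1 of M2, or 2 or 4 of ONX-treated M2 (adjusted p up to 0.104).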

How the results depend on the processing

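Of 99 calls among 256 pairs of member and comparison, 75 kept their direction and call under every alternative run other than a minimum log2 change (at most 31 each), and none reversed. A minimum log2 change of 1 left 4 members called in M2 against M0, 2, 6 and 1 for ONX-0914 in M0, M1 and M2, and 2, 0 and 3 for M1 minus M0, M2 minus M0 and M1 minus M2; M1 against M0 kept 23. M2 minus M0, with 1 call, had 3 with voom and 2 with the compared libraries alone. Leaving out each library gave 26 to 29 calls in M1 against M0, 11 to 15 in M2 against M0, 6 to 9, 17 to 20 and 12 to 15 for ONX-0914 in M0, M1 and M2, 5 to 9 for M1 minus M0, 1 to 1 for M2 minus M0, and 5 to 9 for M1 minus M2 (8 with all; 5 without M2 with ONX-0914 replicate 3). Without M1 replicate 2, 7 calls were lost and 8 gained. A check for pairing by replicate number detected none, which does not show that the samples were unpaired. For this check, each gene's group mean was first subtracted from its log CPM, so that only differences within a group remained. These differences correlated at -0.052 to 0.071 between same-numbered samples of different groups over 20 pairs, 3 of which were best with their own number. With a replicate block the counts were 29, 14, 8, 19 and 14 in the 5 pairwise comparisons and 7, 1 and 8 in the 3 differences; the block changed 1 call, Tnfrsf4 in M1 against M0. Depth limits the members near 3 counts per library.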

Other observations

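Of 6 superfamily genes whose symbols fall outside the rule (Cd40lg, Eda, Edar, Eda2r, Ngfr and Relt), 3 passed the filter: Eda2r, Ngfr and Relt. Relt, a TNF receptor family member of lymphoid tissues, fell from 7.77 ± 0.905 CPM (SD, n = 4) in M0 to 3.61 ± 0.353 CPM in M1 (log2 -1.11 ± 0.12 SE, edgeR adjusted p = 2.88e-09) and rose to 12.1 ± 0.401 CPM in M2 (log2 0.64 ± 0.10, adjusted p = 8.58e-06). These opposite signs against M0 were also those of Tnfrsf26, and both comparisons share the M0 libraries. Eda2r, the receptor of ectodysplasin A2, rose with ONX-0914 in M0 from 4.81 to 6.76 CPM (log2 0.49, adjusted p = 0.0394) and in M2 from 5.3 to 7.53 CPM (log2 0.51, adjusted p = 0.0179). In M1 it had 4.7 CPM without and 6.39 CPM with ONX-0914 and was not called (log2 0.43, adjusted p = 0.0539).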
